A study of Sus scrofa with 12 samples.

Results

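Deubiquitinases are the enzymes that take ubiquitin off proteins. The genes described here are the ubiquitin-specific proteases (USP) and the ovarian tumour (OTU), ubiquitin C-terminal hydrolase (UCH) and Josephin deubiquitinases whose names begin with USP and a number, OTUB, OTUD, UCHL, BAP1, JOSD or ATXN3. This name rule uses no expression value, though it was chosen with earlier results of these data known. It picked 60 of the 28965 genes in the table: 45 USP, 10 OTU, 4 UCH (BAP1 among them) and 1 Josephin gene. Of these, 58 were among the 12977 genes with enough counts to be tested. ATXN3 and USP36 carry these names in an Ensembl name table but only an identifier in the deposited table, so they fell outside the rule and are given apart.

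Ubiquitin is a small protein that is joined to other proteins in chains or singly by ligases, and the deubiquitinases reverse that step. They recycle ubiquitin at the proteasome, rescue proteins from degradation, edit ubiquitin on histones and act on receptors, DNA repair factors and cell cycle regulators. A maturing oocyte resumes meiosis with little new transcription, and timed protein destruction by ubiquitin ligases drives its passage through the meiotic divisions, so the enzymes that oppose the ligases are of interest there. The roles given below were worked out mainly in human and mouse cells.

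RNA was sequenced from denuded pig (Sus scrofa) oocytes, that is, oocytes stripped of their surrounding cumulus cells. There were 4 groups, sampled at 0, 12, 28 and 44 h of maturation in a chemically defined medium, with 3 libraries in each. No other treatment, genotype, breed or age is given in the labels, and the 0 h group is the starting point and the only reference. Nothing in the labels ties a library to its own animal or culture; a p-value here therefore speaks only of the spread among these libraries, which may be technical.

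The 12 libraries held 21877235 to 26015373 counts. Levels are given in CPM, counts scaled to library size with TMM normalisation, and comparisons between genes use RPKM, which also divides by gene length. Of 9 oocyte markers measured, all were detected at every time, among them BMP15 at 5003 CPM and GDF9 at 1499 CPM at 0 h, and at 44 h against 0 h 7 of the 9 were called lower and 2 higher (WEE2 and BTG4). Of 18 cumulus and granulosa markers in the table, 9 had enough counts to be tested, FSHR had no count in any library, and AMHR2 had counts in 12 h replicate 3 alone (0.0865 CPM). The summed level of the 18 ranged over the libraries of a time from 375 to 415 CPM (0 h), 391 to 423 CPM (12 h), 400 to 411 CPM (28 h) and 329 to 338 CPM (44 h). Most of it came from AMH, KITLG and VCAN, and the other 15 markers together summed to between 9.22 and 14.2 CPM in the 0 h libraries and between 13 and 24.4 CPM in those of 44 h. At 44 h against 0 h, 1 of the 9 was called higher (INHBA) and 2 lower (AMH and KITLG); their part in the results below was not tested.

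The deubiquitinase genes were a steady and mostly abundant group. The 0 h libraries gave them 0.971% ± 0.0273 of all counts, those of 12 h 0.978% ± 0.0161, those of 28 h 0.983% ± 0.00496 and those of 44 h 1% ± 0.00927 (SD, n = 3 at each time). By mean level over all libraries, 27 members were at 100 CPM or more, 23 at 10 to 100 CPM, 6 at 1 to 10 CPM and 4 under 1 CPM. By RPKM, 46 members lay above the median of the tested genes and 15 in their top 10%.

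Per length, 3 genes stood far above the rest. UCHL1, a small hydrolase known for its abundance in neurons and germ cells, had a mean of 325 RPKM. USP7, which removes ubiquitin from the p53 ligase MDM2 and from chromatin proteins, followed with 267 RPKM, and OTUB1, which blocks the ubiquitin-conjugating enzyme UBE2N, with 264 RPKM. The next were USP38 at 75.2 RPKM, USP33 at 69.4 RPKM and USP44 at 64.1 RPKM. UCHL1, USP7 and OTUB1 together made up 44.1% of the summed RPKM of the 60 genes. The order of these 3 was not fixed over time: UCHL1 had 368 RPKM against 253 for USP7 and 280 for OTUB1 at 0 h, and 293 against 269 and 258 at 44 h.

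**Figure D1:**
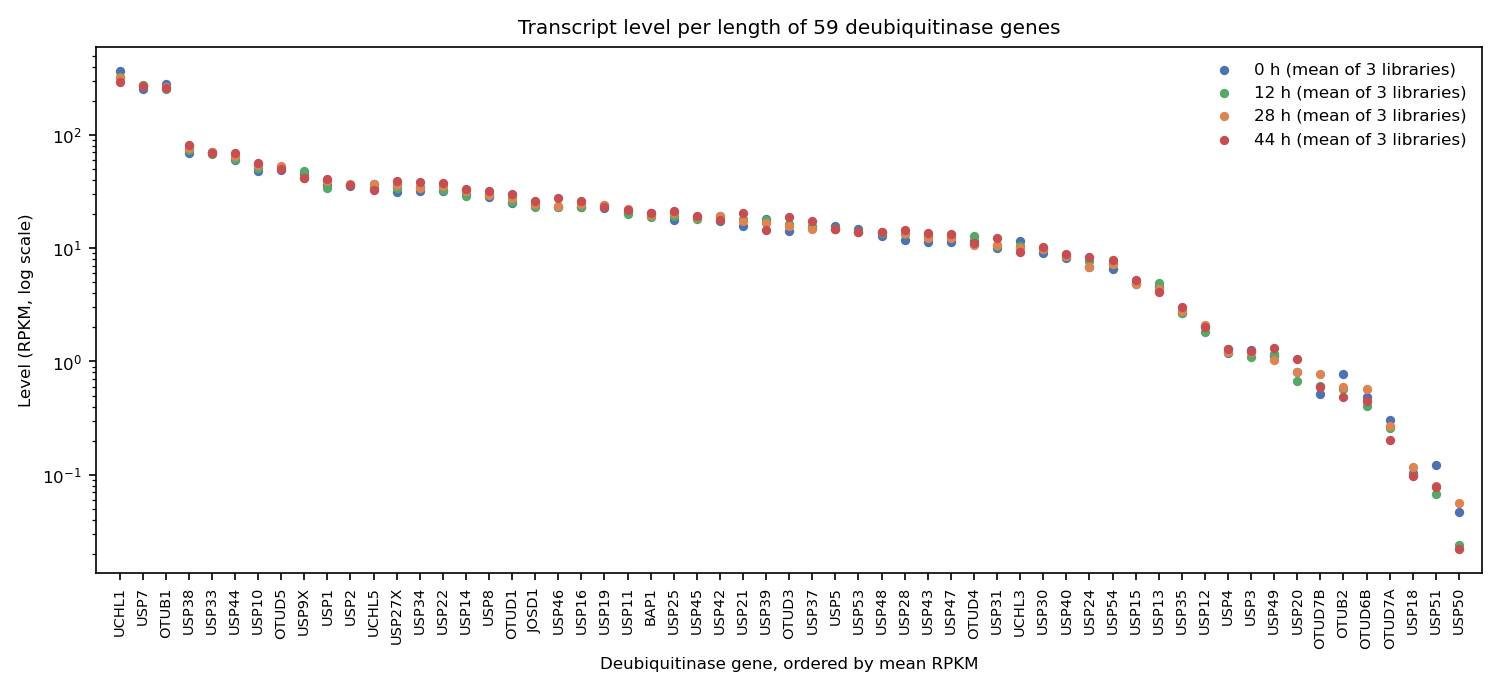
Mean RPKM (log scale) of the 59 deubiquitinase genes with any count, each point the mean of 3 libraries at 1 maturation time, ordered by the mean over all libraries. UCHL1, USP7 and OTUB1 lie between 264 and 325 RPKM over all libraries, and the next gene, USP38, at 75.2 RPKM; the 4 times lie close together for most genes.

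At the low end, OTUD6A had no count in any of the 12 libraries, and USP50 had 0 to 4 counts a library, so neither was tested. USP50 overlaps USP8 on the opposite strand. USP51, a histone H2B deubiquitinase related to USP22, had 0 to 14 counts a library. USP18, which removes the ubiquitin-like protein ISG15, had 3 to 20 counts a library and a mean of 0.517 CPM.

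From 0 to 44 h, 14 of the 58 tested members rose and 3 fell as shares of the counts, and every called change was small. The members that rose were USP21, USP28, USP25, USP27X, OTUD3, USP38, USP22, USP31, USP10, USP44, USP46, USP54, USP43 and USP24, by 16.7% to 32.6%. Those that fell were UCHL1, USP39 and UCHL3, each 1.25-fold to 1.26-fold lower. With edgeR's quasi-likelihood test, adjusted by Benjamini-Hochberg over all 12977 genes, 24.1% of the members were called higher, against 8.3% of all tested genes, and 5.17% were called lower, against 11.6% of all tested genes. Among genes with a mean of at least 10 CPM, 14 of 50 members (28%) were called higher, against 12.9% of 7883 genes, and 3 of 50 (6%) lower, against 15%. The median log2 fold change was 0.128 over the 58 members and -0.00467 over all tested genes. The 0 h and 44 h libraries did not overlap for 21 members, and for 33.5% of all tested genes. All these levels are shares of a library, and the amount of RNA per oocyte was not measured. Whether a higher share came from more of a transcript or from loss of other RNA was not tested. Where a library holds several oocytes, a lower share from fewer oocytes holding a transcript and from less RNA in each cannot be told apart.

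The count of members called higher depended on single libraries, and the share of all tested genes called higher moved too. Leaving out 0 h replicate 4 gave 6 members beside 5.98% of all tested genes, and leaving out 44 h replicate 1 gave 7 beside 4.69%. Leaving out 0 h replicate 2 gave 8 beside 4.59%, and leaving out 44 h replicates 2 or 4 gave 9 beside 5.95% or 6.12%. Without 0 h replicate 3 the count was 18 beside 9.47%. USP1, USP8, USP14, USP16, USP34, USP37 and USP47 were then added and USP22, USP43 and USP46 lost. The calls of USP21, USP25, USP27X, USP28, UCHL1 and USP39 were kept in each of the 21 alternative fits run, that is, with each of the 12 libraries left out and under 9 other settings.

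**Figure D2:**
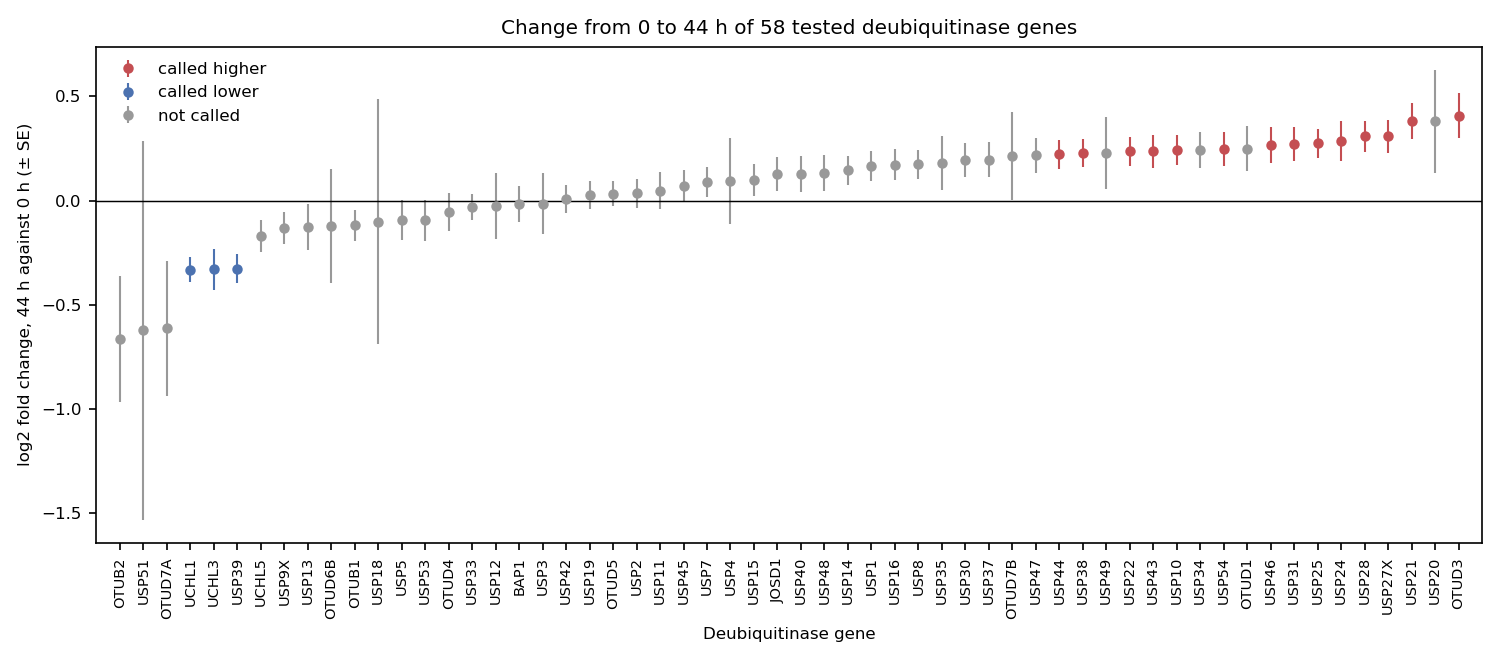
Log2 fold change at 44 h against 0 h for the 58 tested deubiquitinase genes, ordered by size, with bars of ± 1 SE from the fit of 12 libraries. The 14 genes called higher lie between 0.22 and 0.41, and the 3 called lower at -0.33; the widest bars belong to genes with few counts, such as USP51 and USP18.

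The role groups below are small and set by hand, and a gene with several roles stands in a single group. Of all tested members 24.1% were called higher and 5.17% lower, beside 8.3% and 11.6% of all tested genes. No group was tested against the others. Among the enzymes of free ubiquitin and the proteasome, UCHL1 and UCHL3 fell and the other 4 were not called. UCHL1 (chromosome 8, 32353246 to 32367323, plus strand, Sscrofa11.1) was at 737, 664 and 737 CPM in the 0 h libraries, at 625, 649 and 624 CPM at 12 h, at 618, 591 and 622 CPM at 28 h and at 547, 566 and 588 CPM at 44 h. Each 44 h library lay below each library of the earlier times, and each later library below each 0 h library. Its mean went from 713 ± 42.2 CPM at 0 h to 567 ± 20.6 CPM at 44 h (SD, n = 3), or -0.33 ± 0.06 (SE) as a log2 fold change (edgeR adjusted p = 0.00038). UCHL3, a close relative that also cleaves the ubiquitin-like protein NEDD8 (chromosome 11, 47829103 to 47887629, plus strand), was at 48.8, 43.1 and 45.9 CPM at 0 h, at 40.9, 37.8 and 47.0 CPM at 12 h, at 43.8, 38.3 and 36.2 CPM at 28 h and at 36.4, 37.0 and 36.3 CPM at 44 h. The 0 h and 44 h libraries did not overlap, while 12 h and 28 h reached into the 0 h range and 28 h also down to that of 44 h. UCHL3 changed by -0.33 ± 0.10 on the log2 scale (edgeR adjusted p = 0.0189). That call was lost without 0 h replicate 2 (adjusted p = 0.098), 44 h replicate 1 (0.0612) or 44 h replicate 4 (0.0514).

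UCHL1 was also the one member called at 28 h against 0 h, and that call was marginal. The log2 fold change was -0.22 ± 0.06 (edgeR adjusted p = 0.04998), beside 2.05% of all tested genes called lower and 0.609% called higher in that comparison. The call was lost without 0 h replicates 2 or 4 (adjusted p = 0.282 and 0.171), without 28 h replicates 2, 3 or 4 (0.0973, 0.177 and 0.118) and without 44 h replicates 1, 2 or 4 (0.0575, 0.0641 and 0.0514), as well as with no filter on low counts (0.0564) and in a fit of only these times (0.0974). Without 0 h replicate 3, OTUD7B, USP25 and USP28 were called higher at 28 h, against 0 members in the fit of all libraries. The share of all tested genes called higher was then 1.2%, against 0.609%.

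UCHL5 and USP14 are the deubiquitinases that ride on the proteasome. UCHL5 was at 155, 182 and 165 CPM at 0 h, at 160, 154 and 160 CPM at 12 h, at 177, 175 and 152 CPM at 28 h and at 136, 148 and 163 CPM at 44 h. Its 0 h and 44 h libraries overlapped, and the log2 fold change of -0.17 ± 0.08 was not called (edgeR adjusted p = 0.135), although it was called lower without 44 h replicate 4. USP14 was at 111, 126 and 112 CPM at 0 h, at 114, 115 and 111 CPM at 12 h, at 127, 121 and 120 CPM at 28 h and at 125, 125 and 137 CPM at 44 h. Its log2 fold change of 0.15 ± 0.07 was not called (edgeR adjusted p = 0.154). USP5, which takes apart unanchored ubiquitin chains, had 70.2 ± 10.2 CPM at 0 h and 65.7 ± 5.06 CPM at 44 h, and its relative USP13 43.0 ± 6.02 and 39.4 ± 4.99 CPM (SD, n = 3); neither was called.

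Of 9 enzymes of chromatin and histones, USP21, USP22 and USP27X rose, beside 24.1% of all tested members, and none fell. USP21, a histone H2A deubiquitinase (chromosome 4, 89289056 to 89295237, minus strand), was at 55.7, 47.9 and 45.6 CPM at 0 h, at 55.9, 61.3 and 54.3 CPM at 12 h, at 54.0, 54.0 and 56.5 CPM at 28 h and at 64.2, 68.5 and 61.3 CPM at 44 h. All 44 h libraries lay above all 0 h and 28 h libraries, and 12 h overlapped both ends. Its log2 fold change at 44 h against 0 h was 0.38 ± 0.09 (edgeR adjusted p = 0.00281). The whole of USP21 overlaps UFC1 on the same strand, which had a mean of 4.46 CPM, so its counts are uncertain to that extent.

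USP22 is the deubiquitinase of the SAGA coactivator complex, and USP27X uses the same adaptor proteins. USP22 (chromosome 12, 61271641 to 61308270, minus strand) was at 273, 242 and 267 CPM at 0 h, at 258, 294 and 253 CPM at 12 h, at 294, 274 and 284 CPM at 28 h and at 316, 314 and 292 CPM at 44 h. USP27X (chromosome X, 43555005 to 43556321, plus strand) was at 53.3, 51.9 and 49.8 CPM at 0 h, at 59.1, 58.7 and 52.3 CPM at 12 h, at 58.03, 57.0 and 62.1 CPM at 28 h and at 66.5, 65.1 and 60.4 CPM at 44 h. In both genes the 44 h libraries lay above the 0 h libraries with no overlap, and the means of the intermediate times fell between. The log2 fold change was 0.24 ± 0.07 for USP22 (edgeR adjusted p = 0.018) and 0.31 ± 0.08 for USP27X (0.00753). The USP22 call was lost without 0 h replicate 3 (adjusted p = 0.0771), 44 h replicate 1 (0.0855) or 44 h replicate 2 (0.0732).

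USP7 held 15.2% of all counts assigned to the 60 genes, and no change in it was called. It was at 1336, 1573 and 1334 CPM at 0 h, at 1639, 1515 and 1497 CPM at 12 h, at 1405, 1530 and 1636 CPM at 28 h and at 1462, 1466 and 1584 CPM at 44 h. The times overlapped, and the log2 fold change from 0 to 44 h was 0.09 ± 0.07 (edgeR adjusted p = 0.448), with an interval of 2 SE that spans folds of 0.963 to 1.18. BAP1, the histone H2A deubiquitinase that works with ASXL proteins, was at 103.9, 86.3 and 104.2 CPM at 0 h, at 88.1, 87.2 and 96.4 CPM at 12 h, at 103.5, 84.6 and 94.7 CPM at 28 h and at 103.8, 95.7 and 91.8 CPM at 44 h. Its times also overlapped (log2 fold change -0.01 ± 0.09, edgeR adjusted p = 0.939, folds of 0.878 to 1.12 within 2 SE). USP16, an H2A deubiquitinase linked to mitosis, had 93.1 ± 8.48 CPM at 0 h and 104.9 ± 2.14 CPM at 44 h. USP3 had 13.1 ± 1.54 and 13.0 ± 1.11 CPM, and USP49 7.16 ± 0.755 and 8.40 ± 0.811 CPM (SD, n = 3); these were not called.

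Of 12 enzymes linked to genome maintenance and p53, USP28 and USP10 rose, beside 24.1% of all tested members. USP28, which stabilises MYC and binds the repair protein 53BP1 (chromosome 9, 41417559 to 41480985, minus strand), was at 70.5, 80.4 and 69.8 CPM at 0 h, at 84.9, 87.6 and 79.8 CPM at 12 h, at 84.2, 88.3 and 84.4 CPM at 28 h and at 90.1, 90.5 and 93.1 CPM at 44 h. The 44 h libraries were the highest of all 12, and 2 of the 3 libraries at 0 h the lowest. Its log2 fold change was 0.31 ± 0.07 (edgeR adjusted p = 0.00418). USP10, which deubiquitinates p53 and binds the stress granule proteins G3BP1 and G3BP2, was at 187, 208 and 213 CPM at 0 h and at 244, 233 and 242 CPM at 44 h, with no overlap (log2 fold change 0.24 ± 0.07, edgeR adjusted p = 0.0197). The USP10 call was lost without 0 h replicate 2 (adjusted p = 0.135), 44 h replicate 1 (0.0777) or 44 h replicate 4 (0.0596).

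OTUB1 did not change by the test. It was at 663, 541 and 629 CPM at 0 h, at 524, 578 and 594 CPM at 12 h, at 599, 560 and 561 CPM at 28 h and at 540, 599 and 551 CPM at 44 h. The 0 h libraries spanned the widest range, and the log2 fold change at 44 h was -0.12 ± 0.07 (edgeR adjusted p = 0.298); without 0 h replicate 3, its lowest 0 h library, OTUB1 was called lower. USP1, which acts on FANCD2 and PCNA with its partner WDR48, had 291 ± 20.4 CPM at 0 h and 326 ± 30.5 CPM at 44 h. OTUD5 had means of 287 and 294 CPM, USP45 had 221 ± 19.1 and 232 ± 15.6 CPM, and USP47 143 ± 14.1 and 166 ± 13.4 CPM. USP42 had 113 ± 1.52 and 114 ± 4.37 CPM, USP11 88.4 ± 7.84 and 91.4 ± 7.60 CPM, and USP48 82.5 ± 5.75 and 90.4 ± 4.94 CPM (SD, n = 3). None of these was called, nor were OTUD4, with a log2 fold change of -0.06 ± 0.09, and OTUB2, which had 3.42 ± 0.0922 CPM at 0 h and 2.16 ± 0.501 CPM at 44 h.

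Of the cell cycle and spindle group, 4 were tested and USP44 rose, beside 24.1% of all tested members. USP44 holds the spindle checkpoint active in human cells by opposing the ubiquitination of CDC20, and it also acts on histone H2B. It lies at 87875851 to 87889684 on the plus strand of chromosome 5. Its level was 335, 362 and 326 CPM at 0 h, 360, 367 and 328 CPM at 12 h, 354, 394 and 361 CPM at 28 h and 373, 396 and 424 CPM at 44 h. All 44 h libraries lay above all 0 h libraries, while 28 h overlapped both. The log2 fold change was 0.22 ± 0.07 (edgeR adjusted p = 0.0247), the smallest of the 14 genes that rose. The call was lost without 0 h replicate 2 (adjusted p = 0.0938), 0 h replicate 4 (0.0993), 44 h replicate 2 (0.0629) or 44 h replicate 4 (0.136), and USP44 overlaps METAP2 on the opposite strand over 1011 bases.

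USP9X and USP33 were among the more abundant members and were not called in any comparison. USP9X, a large X-linked enzyme with many substrates, was at 628, 734 and 573 CPM at 0 h, at 733, 642 and 707 CPM at 12 h, at 561, 593 and 608 CPM at 28 h and at 604, 567 and 598 CPM at 44 h. Its 12 h libraries lay above its 28 h libraries with no overlap (log2 fold change at 28 h against 12 h -0.24 ± 0.08, unadjusted p = 0.00451, edgeR adjusted p = 0.385). USP33, which acts at the centrosome, was steady, at 381, 384 and 354 CPM at 0 h, 362, 364 and 357 CPM at 12 h, 375, 387 and 351 CPM at 28 h and 351, 360 and 385 CPM at 44 h. Its log2 fold change at 44 h was -0.03 ± 0.06 (edgeR adjusted p = 0.805). USP37, which opposes the ubiquitination of cyclin A, had 143 ± 14.6 CPM at 0 h and 164 ± 1.80 CPM at 44 h (SD, n = 3) and was not called.

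Of 12 enzymes of endosomes, receptors and signalling, OTUD3 and USP46 rose, beside 24.1% of all tested members. OTUD3, an OTU family enzyme (chromosome 6, 78241599 to 78273542, plus strand), showed the largest rise of the 14. It was at 110, 131 and 93.1 CPM at 0 h, at 143, 107.9 and 140 CPM at 12 h, at 123, 121 and 124 CPM at 28 h and at 158, 143 and 142 CPM at 44 h. The 44 h libraries lay above those of 0 h and 28 h, while 12 h replicate 3 lay with the 0 h libraries (log2 fold change at 44 h against 0 h 0.41 ± 0.11, edgeR adjusted p = 0.0116). The OTUD3 call was lost without 0 h replicate 4 (adjusted p = 0.057) or 44 h replicate 1 (0.0594). USP46, which needs the partner WDR48 for full activity, was at 49.2, 48.2 and 48.0 CPM at 0 h and at 60.5, 55.9 and 58.8 CPM at 44 h (log2 fold change 0.27 ± 0.09, edgeR adjusted p = 0.028). The USP46 call was lost without 0 h replicates 2, 3 or 4 (adjusted p = 0.0653, 0.0528 and 0.0707) or 44 h replicates 1 or 4 (0.117 and 0.0743).

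The other 10 of this group were not called. USP34, a regulator of Wnt signalling, came nearest, with 448 ± 52.5 CPM at 0 h and 531 ± 29.0 CPM at 44 h (SD, n = 3; edgeR adjusted p = 0.0509), and it was called higher with RLE or upper quartile scaling, with no filter on low counts, in a fit of only these times, by DESeq2 and by limma-voom. USP8, which works on endosomes with the STAM proteins, had 229 ± 13.2 and 258 ± 12.4 CPM. USP2 had 200 ± 17.6 and 206 ± 7.62 CPM, USP15 87.0 ± 5.65 and 93.2 ± 3.67 CPM, and OTUD1 45.2 ± 3.21 and 53.7 ± 4.32 CPM. USP4 had 12.5 ± 3.89 and 13.3 ± 0.683 CPM, USP12 10.4 ± 1.10 and 10.2 ± 1.94 CPM, and OTUD7B, USP20 and OTUD7A were under 10 CPM.

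Of 6 members grouped under mitochondria, the endoplasmic reticulum and protein quality control, USP25 and USP38 rose, beside 24.1% of all tested members. The grouping is loose, and no role of this kind is given here for USP38 or JOSD1. USP25, a relative of USP28 that acts in disposal of misfolded proteins from the endoplasmic reticulum (chromosome 13, 180570969 to 180714075, plus strand), was at 203, 234 and 200 CPM at 0 h, at 245, 234 and 225 CPM at 12 h, at 243, 249 and 247 CPM at 28 h and at 261, 244 and 267 CPM at 44 h. USP38 (chromosome 8, 84567618 to 84601224, minus strand) was at 402, 427 and 360 CPM at 0 h, at 427, 426 and 419 CPM at 12 h, at 425, 453 and 428 CPM at 28 h and at 457, 450 and 487 CPM at 44 h. In both genes the mean rose at each time, and no 44 h library reached down to the 0 h libraries. The log2 fold change was 0.27 ± 0.07 for USP25 (edgeR adjusted p = 0.00542) and 0.23 ± 0.07 for USP38 (0.0151). The USP38 call was lost without 0 h replicate 4 (adjusted p = 0.104) or 44 h replicate 4 (0.0815). USP19, anchored in the endoplasmic reticulum membrane, had 152 ± 2.34 CPM at 0 h and 155 ± 3.23 CPM at 44 h, and USP30, which opposes the clearance of mitochondria, 42.5 ± 1.90 and 48.6 ± 2.64 CPM. JOSD1 had 109 ± 2.92 and 119 ± 12.6 CPM and USP35 14.3 ± 0.770 and 16.2 ± 2.21 CPM (SD, n = 3); these 4 were not called.

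USP39 fell, and it is a splicing factor rather than an active protease: it belongs to the spliceosome and lacks the catalytic residues of the family. On chromosome 3 (59121048 to 59156442, minus strand), it was at 136, 123 and 134 CPM at 0 h, at 125, 138 and 125 CPM at 12 h, at 124, 118 and 121 CPM at 28 h and at 101.2, 112 and 99.7 CPM at 44 h. The 44 h libraries were the lowest of all 12, with a log2 fold change against 0 h of -0.33 ± 0.07 (edgeR adjusted p = 0.00193). OTUD6B, which is linked to translation, had 2.67 ± 0.158 CPM at 0 h and 2.45 ± 0.721 CPM at 44 h (SD, n = 3) and was not called.

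Of 6 members given no role here, USP31, USP54, USP43 and USP24 rose, beside 24.1% of all tested members. USP31 was at 90.6, 90.4 and 83.1 CPM at 0 h and at 111, 102.4 and 105.8 CPM at 44 h (log2 fold change 0.27 ± 0.08, edgeR adjusted p = 0.0185). USP54 was at 58.8, 69.5 and 56.4 CPM at 0 h and at 69.8, 75.6 and 74.1 CPM at 44 h (0.25 ± 0.08, adjusted p = 0.0336). The 0 h and 44 h libraries of USP54 were parted by less than 1 CPM. USP43 was at 62.9, 60.8 and 64.6 CPM at 0 h and at 80.5, 71.8 and 69.6 CPM at 44 h (0.24 ± 0.08, adjusted p = 0.0375). USP24 was at 72.04, 85.7 and 62.4 CPM at 0 h and at 94.1, 91.9 and 82.5 CPM at 44 h (0.29 ± 0.10, adjusted p = 0.0408). USP24 is the one of the 14 whose 0 h and 44 h libraries overlapped. USP53 had 117 ± 13.1 and 109 ± 13.5 CPM and USP40 60.2 ± 2.36 and 65.8 ± 7.27 CPM (SD, n = 3), and neither was called.

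These 4 calls also depended on single libraries, by edgeR's adjusted p. The USP31 call was lost without 0 h replicate 4 (0.082) or 44 h replicate 1 (0.0905), and with the replicate number as a block (0.103). The USP54 call was lost without 0 h replicates 2 or 4 (0.139 and 0.161), 44 h replicates 2 or 4 (0.118 and 0.0884), or in a fit of only these times (0.0718). The USP43 call was lost without any 0 h replicate (0.0966, 0.0892 and 0.0518 for replicates 2, 3 and 4), without 28 h replicate 3 (0.0588) and without 44 h replicates 1 or 2 (0.226 and 0.0635). It was also lost with library totals alone (0.0678), with no filter on low counts (0.05002), with the replicate block (0.0984) and in a fit of only these times (0.0679). The USP24 call was lost without 0 h replicates 2 or 4 (0.122 and 0.23), 12 h replicate 1 (0.0505), 28 h replicates 3 or 4 (0.0558 and 0.0525) or 44 h replicates 1 or 2 (0.156 and 0.114), with library totals alone (0.0507) and in a fit of only these times (0.0591).

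**Figure D3:**
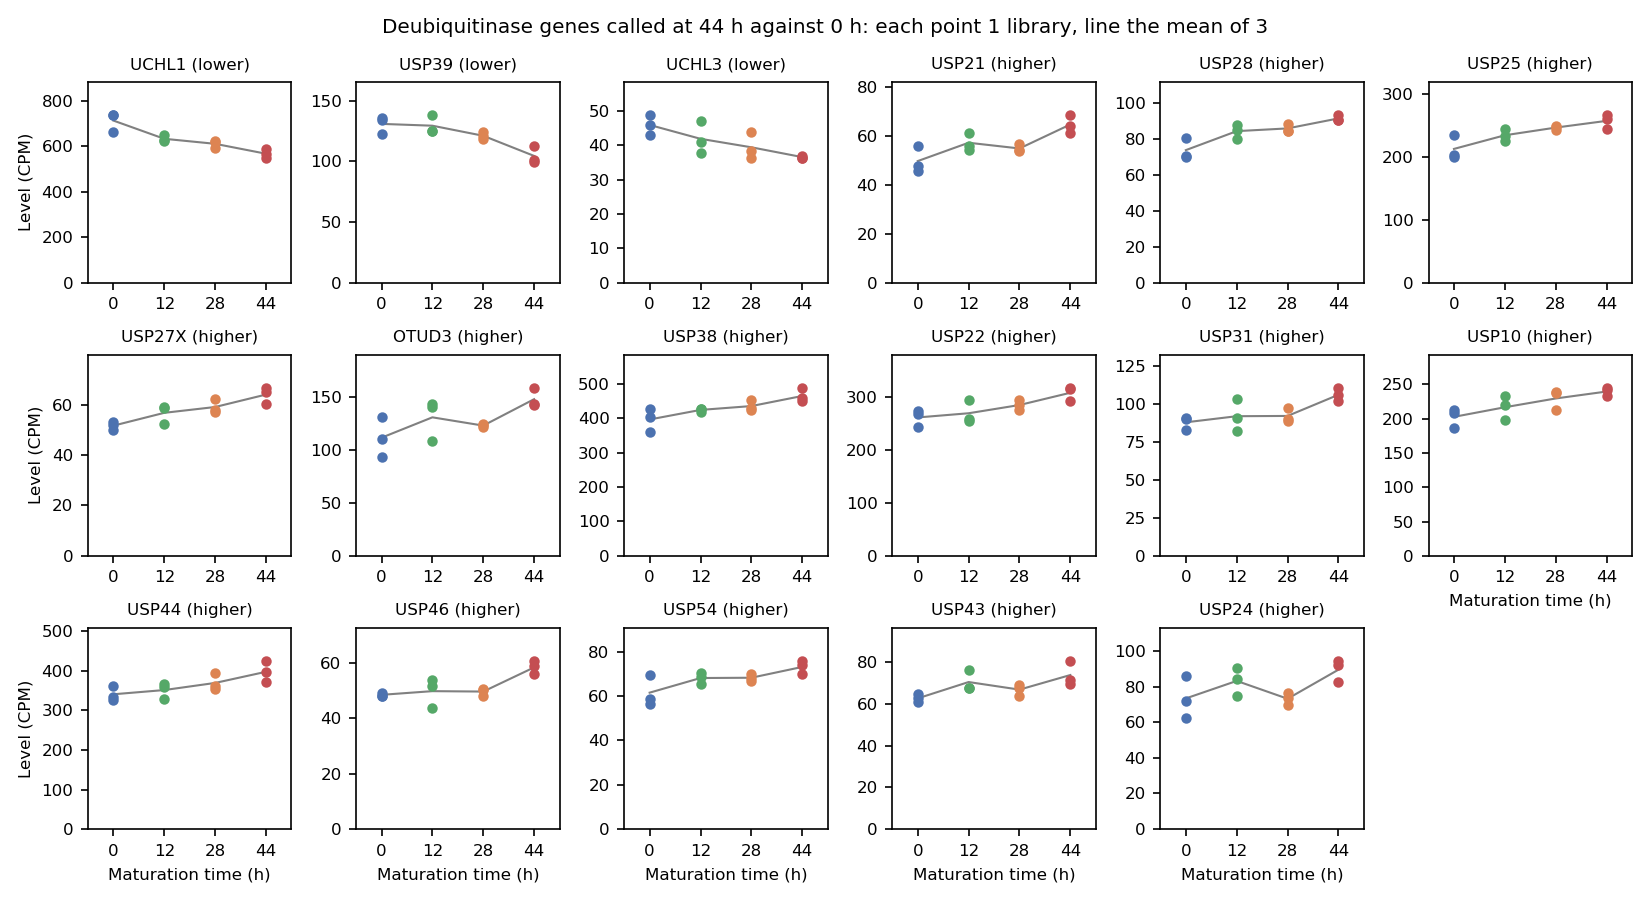
Level in CPM (axes start at 0) of the 17 deubiquitinase genes called at 44 h against 0 h, by maturation time in hours; each point is 1 library and the line joins the means of 3. UCHL1 goes from 713 to 567 CPM on average and USP21 from 49.7 to 64.7 CPM.

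No single step between neighbouring times carried a call. Of the 14 genes that rose, 13 had their lowest mean at 0 h, all 14 had their highest mean at 44 h, and in 9 the mean went up at each time. The 3 that fell went down at each time. These genes were picked for a difference between 0 and 44 h in the same libraries. The choice itself largely sets the order of their end points, and the share over all genes was not counted. Between neighbouring times edgeR's quasi-likelihood test called 0 members, higher or lower, and DESeq2 and limma-voom also called 0. At 12 h against 0 h, 5 members had an unadjusted p under 0.05 (4 higher, 1 lower). By adjusted p, 0 members were called, and 0.177% and 0.0308% of all tested genes were called higher and lower. At 28 h against 12 h there were 3 by unadjusted p (1 higher, 2 lower). By adjusted p, 0.108% and 0.154% of all tested genes were called. At 44 h against 28 h there were 9 by unadjusted p (7 higher, 2 lower), while 0.393% and 4.3% of all tested genes were called by adjusted p. The share of all tested genes with an unadjusted p under 0.05 was not counted. The members' counts at that level therefore cannot be set against these shares. The comparisons with 0 h share the 0 h libraries, and neighbouring steps share the middle time.

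The step from 28 to 44 h came nearest to a call. USP39 had the smallest adjusted p, with a log2 fold change of -0.21 ± 0.07 (edgeR adjusted p = 0.0991), and USP24 followed with 0.29 ± 0.10 (0.105). USP37, USP21, USP46, USP31, OTUD3 and USP49 were the others with higher means, and UCHL5 the other with a lower one. In a fit of only these times, OTUD3, USP21, USP24 and USP37 were called higher and USP39 lower. That fit called 2.01% of all tested genes higher and 5.8% lower, against 0.393% and 4.3% in the fit of all libraries. Without 0 h replicate 3, which enters through the shared spread, USP24 alone was called higher, beside 0.817% of all tested genes.

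Tested for any change over the 4 times, 5 members (8.62%) passed, against 13.1% of all tested genes: UCHL1 (edgeR adjusted p = 0.00325), USP39 (0.00732), USP21 (0.0223), USP28 (0.0309) and USP25 (0.0324). This count also hung on single libraries, and the share over all tested genes moved too. Leaving out 44 h replicate 1 gave 1 member beside 8.26% of all tested genes, and leaving out 44 h replicate 4 gave 2 beside 10.1%. Leaving out any of 0 h replicates 2 and 4, 28 h replicate 3 and 44 h replicate 2 gave 3, beside 8.67% to 11.2%. The count was 9 of 58 beside 13.7% without 12 h replicate 3, and 13 of 58 beside 16.4% without 0 h replicate 3. DESeq2's likelihood ratio test gave 15 of 58 beside 17.7%. Whether the members' share lay below or above that of all tested genes therefore differed between fits.

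For the members not called, the data set limits on the change. Of 41 such genes, 33 had a mean of at least 10 CPM. Their fold changes from 0 to 44 h, taken 2 SE to either side, lay between 0.787 and 1.42. Not all of these intervals included no change. Those of OTUD1, USP1, USP8, USP14, USP16, USP30, USP34, USP37 and USP47 lay wholly above 1, and that of UCHL5 wholly below. By edgeR's unadjusted p, 28 of the 58 tested members were under 0.05 (23 higher, 5 lower), of which 17 were called. The share of all tested genes under that unadjusted p was not counted, so the 28 cannot be read as particular to the members. By adjusted p, 8.3% of all tested genes were called higher and 11.6% lower. The other 8 of the 41 uncalled genes had fewer counts and wider limits. Among them were OTUB2 with a log2 fold change of -0.66 ± 0.30 (edgeR adjusted p = 0.136) and USP20 with 0.38 ± 0.25 (0.323).

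Close relatives were often present at very unequal levels. In 12 sets of related genes, put together after the levels were known and holding 26 members, 6 sets had members more than 10-fold apart by RPKM. The sets need not hold every pair of relatives among the members, so this is no count over all relatives. OTUB1 exceeded OTUB2 436-fold (264 against 0.607 RPKM), and USP27X exceeded USP51 406-fold (35.1 against 0.0865 RPKM), while USP22 was level with USP27X at 34.5 RPKM. USP33 exceeded USP20 83.4-fold, UCHL1 exceeded UCHL3 31.3-fold, USP11 exceeded USP4 17-fold and USP46 exceeded USP12 12.2-fold. Others were nearly equal, such as USP25 and USP28 (1.48-fold) and USP31 and USP43 (1.15-fold). The members of 3 sets were all called in 1 direction: UCHL1 and UCHL3 lower, USP25 and USP28 higher, and USP31 and USP43 higher. How the authors divided reads that match several related genes is not given in the sources used here, so levels of close relatives are uncertain to that extent. OTUB2, with a mean of 2.69 CPM, also overlaps DDX24 (265 CPM) on the opposite strand over 1438 bases, which makes its level uncertain.

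**Figure D4:**
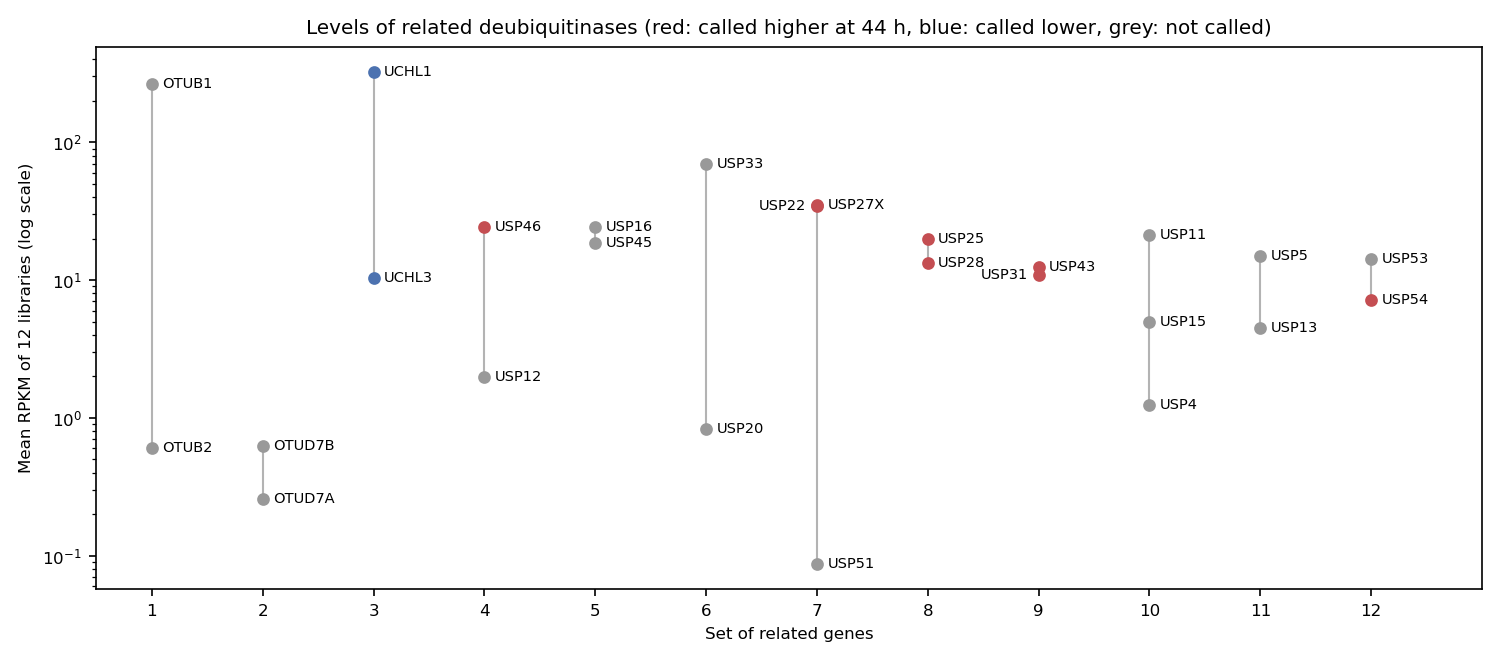
Mean RPKM over 12 libraries (log scale) of 26 deubiquitinase genes in 12 sets of relatives, joined by a line within each set and coloured by the call at 44 h against 0 h. OTUB1 and OTUB2 differ 436-fold, whereas USP25 and USP28, both called higher, differ 1.48-fold.

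Several deubiquitinases need a partner protein, and some partners moved while the enzyme did not pass the test. Of 28 tested partners and scaffolds, 6 were called higher and 3 lower at 44 h against 0 h, beside the 8.3% and 11.6% of all tested genes. GMPS, which makes GMP and binds and activates USP7, fell from 518, 525 and 527 CPM at 0 h to 444, 468 and 442 CPM at 12 h, 387, 434 and 375 CPM at 28 h and 292, 285 and 328 CPM at 44 h. It was lower by 1.74-fold (log2 fold change -0.80 ± 0.07, edgeR adjusted p = 6.93e-09), and no library of one time overlapped another time's. USP7 itself was not called.

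UCHL5 has one partner at the proteasome and another in the INO80 chromatin remodelling complex. The proteasomal receptor ADRM1 was at 107.6, 100 and 128 CPM at 0 h and at 75.9, 74.8 and 79.3 CPM at 44 h (log2 fold change -0.55 ± 0.10, edgeR adjusted p = 0.000348). NFRKB of INO80 was at 349, 346 and 345 CPM at 0 h and at 444, 407 and 426 CPM at 44 h (0.30 ± 0.06, adjusted p = 0.00126). UCHL5 lay between, with a difference that was not called. The INO80 gene itself had 106.9 ± 9.98 CPM at 0 h and 101.3 ± 5.46 CPM at 44 h and was not called (edgeR adjusted p = 0.605).

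Around BAP1, which was not called, the binding proteins MBD5, MBD6, FOXK1 and FOXK2 rose and the scaffolds ASXL1, ASXL2 and ASXL3 were not called. MBD5 was at 23.1, 28.4 and 22.6 CPM at 0 h and at 35.0, 36.8 and 35.1 CPM at 44 h (log2 fold change 0.53 ± 0.11, edgeR adjusted p = 0.00128). MBD6 went from 39.9 ± 7.29 to 52.9 ± 3.53 CPM (adjusted p = 0.00685), FOXK1 from 56.6 ± 3.65 to 68.3 ± 3.33 CPM (0.0336) and FOXK2 from 375 to 428 CPM (0.0389; SD, n = 3 where given). WDR48, which activates USP1, USP12 and USP46, went from 156 ± 11.5 to 181 ± 8.76 CPM (edgeR adjusted p = 0.0442). Of these 3 enzymes, USP46 was called. G3BP2, which binds USP10, fell and was at 131, 143 and 121 CPM at 0 h and at 105.6, 101.2 and 107.6 CPM at 44 h (edgeR adjusted p = 0.00166), while USP10 rose. The other binder, G3BP1, had 7.15 ± 1.17 CPM at 0 h and 5.87 ± 1.33 CPM at 44 h and was not called (edgeR adjusted p = 0.328). The SAGA adaptors ATXN7, ATXN7L1, ATXN7L2, ATXN7L3 and ENY2 were not called. MBD6, FOXK1, FOXK2, WDR48, G3BP1, G3BP2 and INO80 are named after their values were seen.

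**Figure D5:**
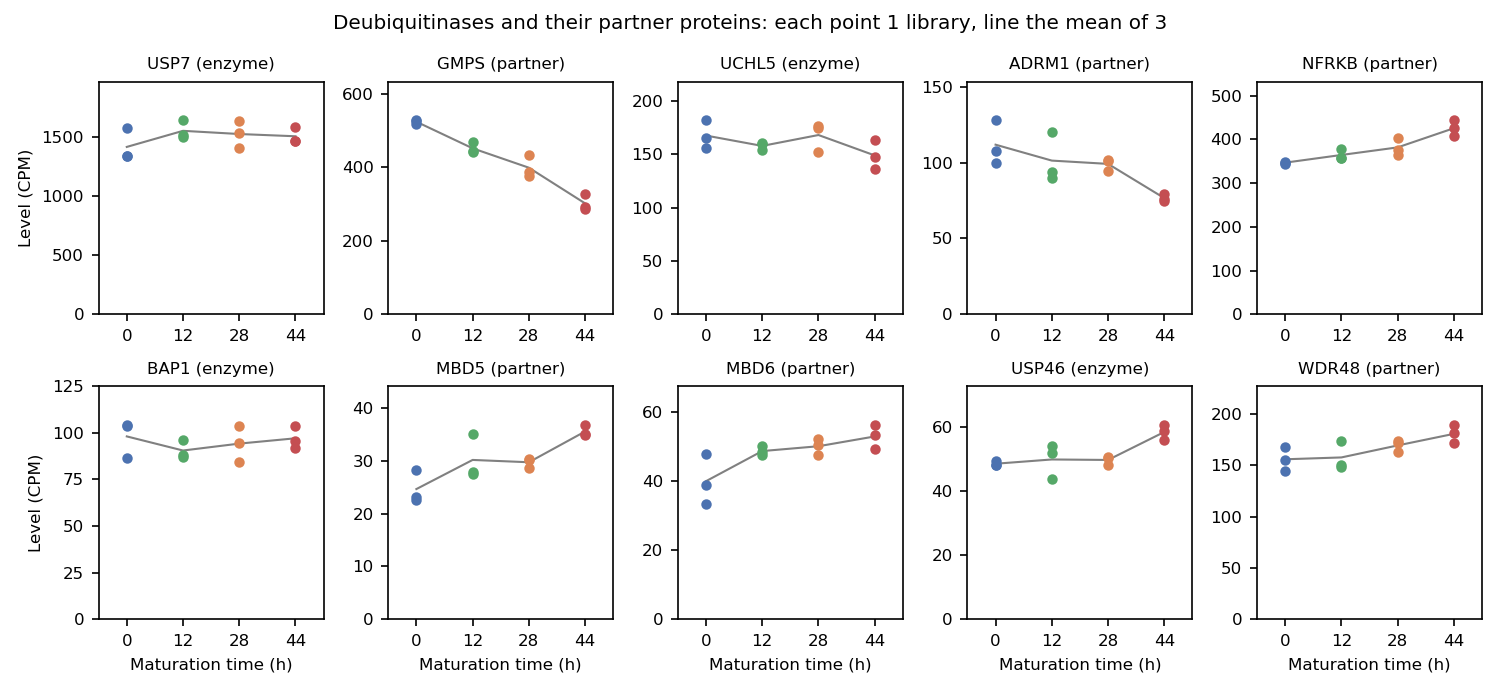
Level in CPM (axes start at 0) by maturation time in hours of USP7, UCHL5, BAP1 and USP46 and of proteins that bind them; each point is 1 library and the line joins the means of 3. GMPS goes from 524 to 302 CPM while USP7 stays between 1334 and 1639 CPM, and ADRM1 and NFRKB, both partners of UCHL5, go in opposite directions.

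A further list held 24 tested deubiquitinases and related proteins outside the name rule. Not all are active deubiquitinases, and COPS5, COPS6, USPL1, PAN2 and EIF3H were among them. At 44 h against 0 h, 2 of the 24 were called higher and 3 lower, beside the 8.3% and 11.6% of all tested genes. These are shares near the background. ZRANB1, an OTU enzyme known as Trabid, was at 137, 146 and 138 CPM at 0 h and at 177, 167 and 180 CPM at 44 h (log2 fold change 0.32 ± 0.07, edgeR adjusted p = 0.00127). MYSM1, a metalloprotease that acts on histone H2A, went from 164 ± 11.9 to 197 ± 9.94 CPM (SD, n = 3; adjusted p = 0.00708). The 2 with the smallest adjusted p among those lower belong to the JAMM domain family but are scaffold subunits of larger machines: EIF3F, of translation initiation factor 3, went from 33.4 ± 5.59 to 14.0 ± 0.840 CPM (adjusted p = 4.15e-06), and PSMD7, of the proteasome lid, from 68.6 ± 2.07 to 49.0 ± 2.05 CPM (3.05e-05). MINDY3 was the other, from 118 ± 3.74 to 96.8 ± 2.75 CPM (0.00705). PSMD14, the active deubiquitinase of the proteasome lid, was not called (edgeR adjusted p = 0.201), and the smallest adjusted p among 7 SUMO proteases was 0.147, for SENP1.

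Of the genes for ubiquitin itself and the E1 enzymes that activate it, UBB and RPS27A fell. UBB, a polyubiquitin gene, was at 1450, 1090 and 1317 CPM at 0 h, at 1039, 980 and 1072 CPM at 12 h, at 987, 969 and 832 CPM at 28 h and at 869, 921 and 798 CPM at 44 h (log2 fold change at 44 h -0.58 ± 0.09, edgeR adjusted p = 5.82e-05). RPS27A, which encodes ubiquitin fused to a ribosomal protein, went from 62.9 ± 6.26 to 18.6 ± 2.55 CPM (SD, n = 3; adjusted p = 1.68e-10); near-identical copies of it make its counts uncertain. The E1 genes UBA1 and UBA6 were not called. UCHL1 and UBB both had their highest mean at 0 h and their lowest at 44 h. So did UCHL3, USP39, RPS27A, GMPS and GDF9, among others, and the order is not particular to UCHL1 and UBB.

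The deubiquitinases known only by the name table behaved differently from each other. USP36, which acts in the nucleolus, was at 239, 248 and 268 CPM at 0 h, at 270, 282 and 292 CPM at 12 h, at 269, 266 and 300 CPM at 28 h and at 319, 292 and 303 CPM at 44 h, and its 0 h and 44 h libraries did not overlap (log2 fold change 0.28 ± 0.07, edgeR adjusted p = 0.00501). ATXN3, the Josephin enzyme of Machado-Joseph disease, was at 34.4, 35.5 and 32.9 CPM at 0 h, at 41.0, 31.1 and 39.9 CPM at 12 h, at 39.1, 35.2 and 35.9 CPM at 28 h and at 33.8, 35.3 and 35.7 CPM at 44 h. Its groups overlapped, and no change was called (log2 fold change 0.03 ± 0.10, edgeR adjusted p = 0.898).

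The 60 genes lay on 16 chromosomes, 7 of them on chromosome 6 and 6 on the X chromosome (USP9X, USP11, OTUD5, USP27X, USP51 and OTUD6A). Of the 5 X-linked genes tested, USP27X was called higher at 44 h against 0 h, beside 24.1% of all tested members. The derived length of the tested members had a median of 5.80 kb, against 5.51 kb for all tested genes. Over the 58 members, length and log2 fold change at 44 h against 0 h had a Spearman correlation of 0.124, and over all 12977 tested genes 0.214; this is a description across genes, which share libraries.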

How the data were processed

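Total RNA of denuded pig oocytes was made into libraries with a stranded pico-input total RNA kit and sequenced on a NovaSeq, per the labels' protocols. The submitters' processing notes name Sscrofa11.1 and DESeq2. The aligner, counter, strand setting and treatment of multi-mapping reads are not given in the sources used here.

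Per the file headers, the deposited table holds for each library the authors' total counts per gene, the input of every test, and their RPKM, used for levels per length and to derive gene lengths. The authors' fold changes, TPM and CPM columns were not used. A symbol stood in the table for 16246 of 28965 genes, an Ensembl table supplied one for 785, and 11934 have an identifier alone. Libraries were assigned by time and replicate number in their titles, and 0 of 66 pairs of libraries held identical counts.

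Genes were kept by filterByExpr (minimum count 10), leaving 12977. Counts were scaled by TMM and fitted with edgeR 4.0.16 (R 4.3.3) by the robust quasi-likelihood method with 1 mean per time over all 12 libraries (8 residual degrees of freedom). The p-values were adjusted by Benjamini-Hochberg over all tested genes, and a gene was called at an adjusted p under 0.05. The SE of a log2 fold change is its size divided by the square root of the F statistic, an approximation. CPM are TMM-normalised values (counts scaled to library size), and intervals cover the spread of libraries only. The scripts were tested on simulated data.

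The members and gene lists were chosen with earlier results of these data known. Values in each library were given for members called in any comparison (up to 6 a direction in full), for the 6 with the highest RPKM and for a panel of USP7, USP9X, USP14, USP44, UCHL1, UCHL3, UCHL5, BAP1, OTUB1 and ATXN3; further called members are given at 0 and 44 h. From each other list, up to 2 genes in each direction by adjusted p at 44 h against 0 h were named, with exceptions marked. Alternatives were RLE, upper quartile and total-count scaling, no filter or 1 CPM in 3 libraries, DESeq2 1.42.0, limma-voom (limma 3.58.1), fits restricted to the pair of times in question, the replicate number as a block, and omission of each library in turn.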

Additional observations from a re-analysis of the deposited data

How the results depend on the processing

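No direction of a called member turned under any alternative run. At 44 h against 0 h, scaling, filter, tool, a fit of only those times and the replicate block gave 12 to 16 members higher and 3 to 4 lower. Of all tested genes, these settings gave 5.94% to 10.4% higher and 8.19% to 12.9% lower. Leaving out 1 library gave 6 to 18 members higher and 2 to 4 lower, beside 4.59% to 9.47% and 8.32% to 12.2% of all tested genes. At 44 h against 28 h, a fit of only those times gave 4 higher and 1 lower where the fit of all libraries gave 0 and 0. The shares of all tested genes were 2.01% and 5.8% against 0.393% and 4.3%. Leaving out 1 library gave 0 to 1 member higher, beside 0.0908% to 0.817% of all tested genes. At 28 h against 0 h, leaving out 1 library gave 0 to 3 members higher and 0 to 1 lower. Of all tested genes it gave 0.25% to 1.2% higher and 0.712% to 3.56% lower. The call of UCHL1 lower went to 0 with no filter on low counts and with a fit of only those times, beside 1.84% and 2.07% called lower. The count with any change over the 4 times was 15 with DESeq2 (17.7% of all tested genes), against 5 (13.1%). With 1 library left out it was 1 to 13, beside 8.26% to 16.4% of all tested genes. The causes were not tested; leaving out a library lowers the number of samples by construction. Replicate numbers were taken from the titles and do not show a pairing: over 10 pairs of libraries with the same number, deviations from the group means correlated between -0.00606 and 0.127, with 2 over 0.1, and over 44 other pairs between -0.114 and 0.0668. Each of the 3 libraries at 0 h matched best with its own number at 28 h, a hint from the data and not from the design. With the replicate block, 12 members were higher and 4 lower at 44 h against 0 h, beside 7.1% and 10.6% of all tested genes. USP31 and USP43 were lost (edgeR adjusted p = 0.103 and 0.0984), OTUB2 was added, and the other member counts did not change. At 21877235 to 26015373 counts a library, members under 10 CPM have the widest errors.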
